A study of Macaca mulatta with 95 samples.

Results

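The genes described here are 10 of the 16049 in the table, chosen by name: the glucose transporter SLC2A1 (GLUT1) and the glycolytic enzymes HK1, HK2, GPI, PFKM, PFKL, TPI1, ENO1, ENO2 and LDHA. They include the isoform pairs HK1 and HK2, PFKM and PFKL, and ENO1 and ENO2. Each was read in every one of 95 single cells of rhesus macaque (Macaca mulatta) embryos fertilised and cultured in vitro, each cell sequenced as its own library from polyadenylated RNA. The values are RPKM, reads per kilobase of gene and megaread, which allow levels of different genes to be set side by side per length.

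Cells came from 7 stages, and the title of each cell begins with 1 of 5 letters that the labels do not explain. The 16-cell stage (16C, day 3) gave 3 outer and 2 inner cells, all of letter B. The early morula (EM, day 4) gave 5 outer and 5 inner cells, all of letter H, and the late morula (LM, day 4.5) as many of letter D. The early blastocyst (EB, day 5) gave 6 outer cells of letter A and 10 inner cells, of which 5 bear letter A, 3 letter G and 2 letter H. The middle blastocyst (MB, day 5.5) gave 5 outer cells of letter B, and 12 inner cells shared evenly by letters B, G and H. From the late blastocyst (LB, day 6) came 15 inner cells under letter G and 4 under H. The hatched blastocyst (HB, day 7) gave 18 inner cells, 9 under each of these letters. Outer cells are those that took up a membrane dye applied to the whole embryo. For 9 cells with LB in the title the source name says hatched, namely all 4 of letter H and 5 of letter G; they are kept here as LB.

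No label names the animal or embryo of a cell, so each group counts as 1 sample, groups were compared without a test, and each SD describes cells, not embryos. A stage of a single letter cannot be told apart from its letter. In each comparison the log2 ratio is that of the group means after adding 1 RPKM to each; genes whose mean reaches 5 RPKM on either side are called measured, and 2-fold is the limit for calling one higher or lower. Overlap of cells between groups is described for named genes only, without the share of all genes that overlap or not. Recovered whole reads ran from 2.84 to 19.2 megareads per cell with a median of 14.0, and were lowest in LM, with a median of 7.02. The number of genes at 1 RPKM ran from 2358 to 7379, and its median by letter was 3279 (A), 3893 (B), 3719.5 (D), 4711 (G) and 6034 (H). This number also differed between stages of 1 letter. Its median was 5608 in 16C outer and 2998 in MB outer cells of letter B, and 3998 at LB and 6106 at HB in letter G. The respiratory chain subunit COX6C, chosen after its values were seen, had means of 7.54 (A), 8.07 (B) and 4.94 (D) RPKM beside 205 (G) and 317 (H). The letters hold different stages, so these means do not separate letter from stage. Markers of sperm were at 0 in all cells, those of cumulus and blood summed to at most 10.5 and 2.26 RPKM in a cell, and 17 cells exceeded 50 RPKM over the 4 genes of the fibroblast list (COL1A1, COL1A2, THY1 and DCN), all of them inner MB, LB or HB cells.

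Glycolysis splits glucose into pyruvate. SLC2A1 carries glucose across the plasma membrane, hexokinases trap it as glucose 6-phosphate, GPI turns that into fructose 6-phosphate, phosphofructokinase commits it to breakdown, TPI1 interconverts the triose phosphates, enolase makes phosphoenolpyruvate, and LDHA helps to reduce pyruvate to lactate. Cleaving mammalian embryos are known for relying on pyruvate and lactate, and for taking up more glucose as the blastocyst forms.

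All members had reads, but at very different levels. HK1, HK2, GPI, PFKL, ENO1 and LDHA were above 0 in all 95 cells, SLC2A1 and TPI1 in 93, PFKM in 30 and ENO2 in 26. ENO1, the enolase of most tissues, was the highest of the 10 in 67 cells, LDHA in 13, SLC2A1 in 7 and TPI1 in 6, and ENO1 averaged 1062 RPKM ± 1014 (SD over 95 cells), from 73.9 to 5334 RPKM. PFKM was at 0 in 65 cells and reached 1 RPKM in 15. In those 65 cells 3 reads, the limit that a count of 0 allows, would be worth 0.0381 to 0.268 RPKM with counting error alone considered. Ordered by mean over the 18 groups of stage, position and letter, neighbouring groups overlapped in 17 of 17 pairs for 7 members and in 16 of 17 for ENO1, ENO2 and LDHA. LDHA, TPI1 and ENO1 are genes of which processed gene copies exist in primates, and how the authors' counting treated reads shared with copies is not given in the sources used here.

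**Figure D1:**
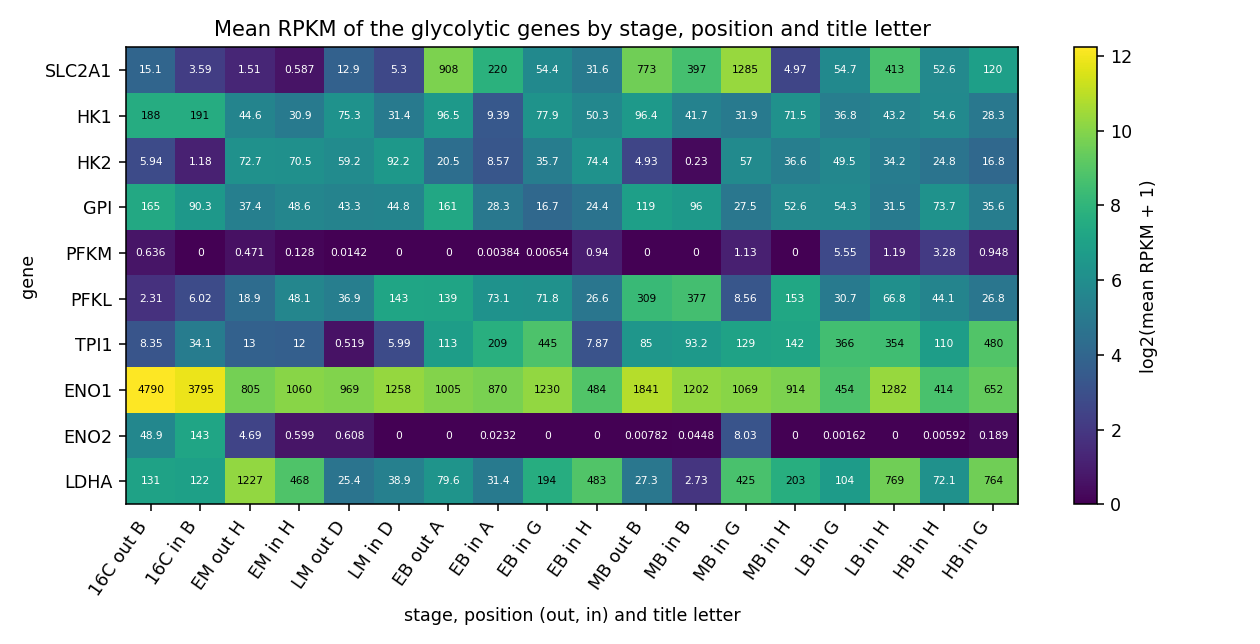
Mean RPKM of the 10 genes (rows) in the 18 groups of stage, position (out, in) and title letter (columns), with the mean printed in each field and colour on a log2(mean RPKM + 1) scale. ENO1 is high throughout and highest at the 16-cell stage at 4790 and 3795 RPKM; SLC2A1 is under 20 RPKM in all groups before the cavity and reaches 1285 RPKM in MB inner cells of letter G.

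SLC2A1 was low before the cavity formed and high in most cells of letters A and B after it. At EB it had 351, 454, 504, 1144, 1356 and 1637 RPKM in the 6 outer cells, and at LM 0.239, 2.82, 11.2, 12.2 and 37.8 RPKM in the 5 outer cells. These groups did not overlap, and all 25 cells of 16C, EM and LM were under 50 RPKM. In this comparison of EB with LM outer cells, added after the data were seen, 5 members were higher (35.8% of all measured genes were) and 1 was lower (34.5%), out of 8 measured. SLC2A1 differed by 6.03 on the log2 scale (6.90 without LM cell D-06). The groups also differ in letter, A for EB and D for LM, so stage and letter cannot be told apart.

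TPI1 differed as much in mean, but through few cells. It had 0.234, 0.669, 1.14, 17.5, 85.0 and 572 RPKM in EB outer cells, against 0.105, 0.129, 0.235, 1.05 and 1.07 in LM outer cells, a log2 ratio of 6.23 and of 3.85 without EB cell A-09. The ranges overlapped, 3 EB cells being near the LM level. GPI (1.87), PFKL (1.89) and LDHA (1.61) were also higher in EB outer cells and HK2 lower (-1.48). The GPI call ended without EB cell A-02 (0.61) and with medians (0.77), and the PFKL call without EB cell A-10 (0.79), while PFKL without LM cell D-01 stood at 3.13 and HK2 without EB cell A-08 at -3.51. The calls of HK2 (-0.65) and PFKL (0.92) also ended when the tenth of cells with the fewest genes was left out.

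**Figure D2:**
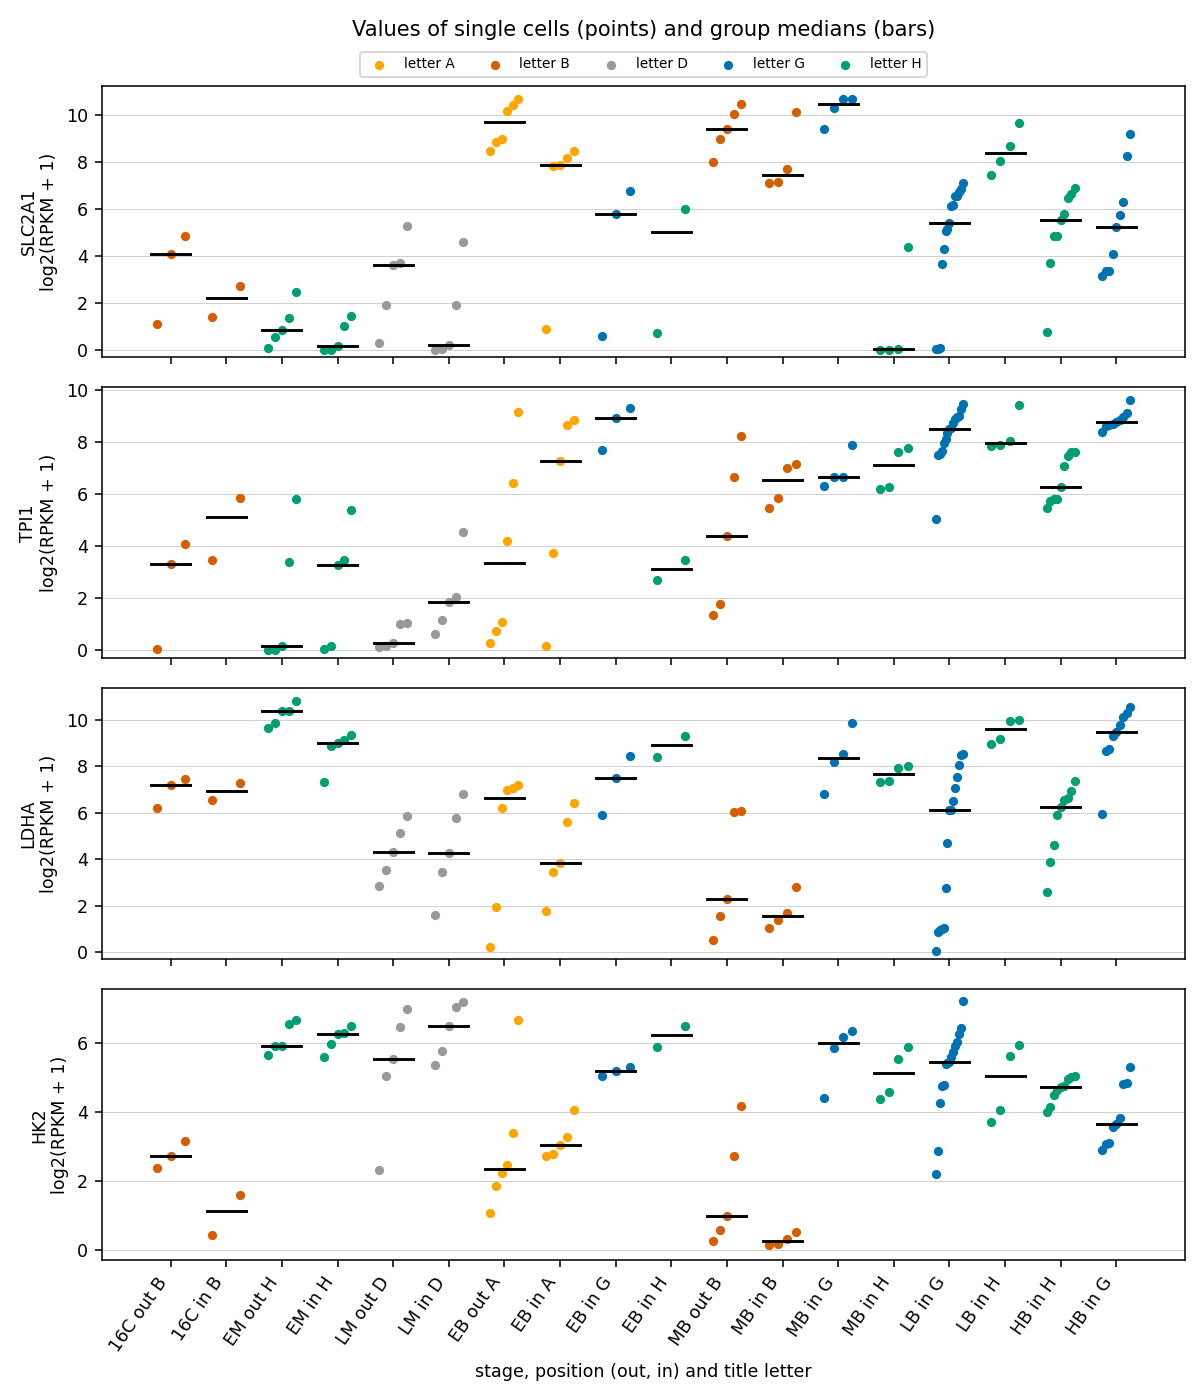
RPKM of SLC2A1, TPI1, LDHA and HK2 in single cells (points, coloured by title letter; bars, medians) by stage, position and letter, on a log2(RPKM + 1) axis. SLC2A1 of MB inner cells is at 672 RPKM or more in letter G and at 19.8 RPKM or less in letter H; HK2 is low in nearly all cells of letters A and B.

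Among inner MB cells SLC2A1 differed between letters G and H. At MB it had 672, 1235, 1616 and 1616 RPKM in letter G, against 0.0148, 0.0163, 0.0468 and 19.8 RPKM in letter H, where 2 of the values are single reads. The cells of the 2 letters did not overlap, and the log2 ratio was 7.75 (10.29 without cell H-03). Inner MB cells of letter B ran from 136 through a median of 173 to 1108 RPKM, and their range overlapped that of letter G. Cells of letter G at this stage carried RNA of the hypoblast factors GATA4 (122 RPKM) and SOX17 (69.4) with NANOG at 1.41, whereas those of letter H had none of either in the table (means of 0) and 75.1 RPKM of NANOG. Letter and lineage cannot be told apart in this contrast.

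At LB the order of the letters was the opposite. SLC2A1 in LB cells of letter G ran from 0.0214 through a median of 41.3 to 138 RPKM, below all 4 MB cells of that letter (log2 ratio -4.53). In LB cells of letter H it was 171, 262, 406 and 815 RPKM, above all 4 MB cells of that letter (log2 ratio 6.12, and 8.66 without MB cell H-03). In HB cells of letter H it was again low, from 0.720 through a median of 45.3 to 119 RPKM, below all 4 LB cells of letter H (log2 ratio -2.95). In HB cells of letter G it ran from 7.92 through a median of 37.1 to 575 RPKM.

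Position was compared within 1 letter at EB and MB, which lets the cavity stages be read without a change of letter. At EB, 5 of 8 measured members were higher in outer than in inner cells of letter A (29% of all measured genes were higher) and 0 were lower (32.7%). Their median log2 ratio was 1.24, against -0.11 over all genes. SLC2A1 had 351 to 1637 RPKM in the outer cells, as given above, and 0.884, 225, 235, 288 and 352 RPKM in the inner cells. Only the lowest outer cell fell within the inner range, and the log2 ratio was 2.04.

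HK1, the hexokinase of most tissues, differed most at EB. It had 16.8, 75.8, 85.9, 89.8, 126 and 185 RPKM in the outer cells, against 0.158, 0.198, 0.589, 21.4 and 24.6 RPKM in the inner cells, a log2 ratio of 3.23 (3.89 without inner cell A-03, the shallowest library). Only 1 outer cell, A-09, lay within the inner range. LDHA had 0.167, 2.86, 72.3, 125, 132 and 146 RPKM in the outer cells and 2.39, 9.92, 13.2, 46.8 and 84.7 RPKM in the inner cells, with wide overlap (1.31, and 2.08 without inner cell A-10). GPI had a log2 ratio of 2.47, with 1 outer cell, A-02, at 635 RPKM (1.21 without it, and 3.22 without inner cell A-07). The HK2 call rested on outer cell A-08 at 102 RPKM, the other outer cells being at 9.43 RPKM or less, and its ratio was 1.17 with and -0.86 without that cell, 0.91 with a pseudocount of 5, 0.96 in depth-weighted means and 0.30 with median-of-ratios factors. Markers of the outer layer differed between the same cells, with GATA3 at 188 RPKM in outer and 10.9 RPKM in inner cells and KRT18 at 11041 and 2193 RPKM.

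At MB, 2 of 7 measured members were higher in outer than in inner cells of letter B (36.3% of all measured genes were higher) and 0 were lower (24.7%). LDHA had 0.448, 1.98, 3.90, 64.1 and 66.3 RPKM in the outer cells and 1.06, 1.65, 2.22 and 5.99 RPKM in the inner cells (log2 ratio 2.93, 2.32 without outer cell B-01, and 0.74 with medians in place of means). HK1 had 0.840, 97.7, 115, 120 and 148 RPKM in the outer cells and 2.38, 5.01, 66.9 and 92.7 RPKM in the inner cells. Its log2 ratio of 1.19 went under the limit without any 1 of outer cell B-01 (0.98), inner cell B-02 (0.82) or inner cell B-06 (0.80), and was 1.92 without inner cell B-05. SLC2A1 stood at 254 to 1401 RPKM in the outer cells and at 136, 140, 206 and 1108 RPKM in the inner cells, a log2 ratio of 0.96.

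Before the cavity, outer cells were set against inner cells within 16C, EM and LM and the 3 stages weighted equally. SLC2A1 (1.38) and LDHA (1.13) were higher, which makes 2 of 9 measured members against 13.5% of all genes. PFKL (-1.71), TPI1 (-1.15) and ENO2 (-1.36) were lower, which makes 3 of 9 against 9.88%. Of these, PFKL alone was lower at all 3 stages. ENO2 was lower in outer cells at 16C (-1.53) and higher at EM (1.83) and LM (0.69), its levels at 16C setting the mean, and TPI1 stood at -1.91 at 16C, 0.11 at EM and -2.20 at LM. The LDHA difference came from EM, with 801, 916, 1306, 1321 and 1791 RPKM in the outer cells, against 156, 459, 512, 559 and 655 RPKM in the inner cells. These 2 groups did not overlap, while at LM the outer mean of 25.4 RPKM stood beside an inner mean of 38.9 RPKM.

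For PFKL, the liver-type phosphofructokinase, the stages gave log2 ratios of -1.08 at 16C, -1.30 at EM and -1.93 at LM, with overlapping cells each time. At LM it had 1.58, 3.07, 3.38, 52.2 and 124 RPKM in the outer cells and 35.1, 125, 148, 183 and 225 RPKM in the inner cells. Several of these calls hung on 1 cell. TPI1 stood at -0.33 without 16C inner cell B-01, at -0.92 to -0.97 without any 1 of 5 other cells and at -1.95 without EM outer cell H-02, LDHA at 0.97 without EM inner cell H-05 and at 0.98 without EM outer cell H-04, and ENO2 at -0.97 without 16C inner cell B-02 and at -0.98 without 16C outer cell B-09. SLC2A1 stood at 2.03 without LM inner cell D-01 and PFKL at -2.35 without LM outer cell D-01. With a pseudocount of 5 the calls of SLC2A1 (0.86) and TPI1 (-0.86) ended. With median-of-ratios size factors LDHA stood at 0.79, and the split was 1 higher and 3 lower.

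TPI1 was under 20 RPKM in 21 of the 25 cells before the cavity, the highest being at 57.9 RPKM, and above 30 RPKM in all 37 LB and HB cells. GPI, in contrast, was high at the start, with 119, 164 and 212 RPKM in 16C outer and 27.9 and 153 RPKM in 16C inner cells. The level was not particular to 16C, since GPI averaged 161 RPKM in EB outer cells of letter A. In MB outer cells of letter B, the letter of all 16C cells, it averaged 119 RPKM.

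Most members differed between EM and 16C. Of 9 measured, 3 were higher in EM (44.7% of all measured genes were) and 5 lower (25.1%), with a median log2 ratio of -1.63 against 0.64 over all genes. HK2, the hexokinase typical of muscle and fat, was at 47.5 RPKM or more in all 10 EM cells and at 8.00 RPKM or less in all 5 16C cells, and averaged 71.6 ± 18.6 RPKM (SD, n = 10) in EM and 4.04 ± 3.00 RPKM (SD, n = 5) in 16C. HK1 moved the other way, with 37.7 ± 15.0 RPKM in EM and 189 ± 30.1 RPKM in 16C. ENO1 averaged 932 ± 201 RPKM in EM and 4392 ± 662 RPKM in 16C. ENO2, the enolase typical of neurons, averaged 2.65 ± 4.44 RPKM in EM and 86.4 ± 60.4 RPKM in 16C. In these 4 genes the EM and 16C cells did not overlap, and how common that is among all measured genes is not given.

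LDHA (log2 ratio 2.73) and PFKL (2.85) were also higher in EM and SLC2A1 (-2.49) and GPI (-1.63) lower, with overlap. SLC2A1 stood at -1.78 without 16C outer cell B-01 and ENO2 at -5.24 without EM outer cell H-02. EM carries letter H and 16C letter B, and the stages cannot be told apart from them. Scaling by median-of-ratios factors, which put the all-gene median at -0.71, left 3 higher and 6 lower.

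In LM SLC2A1 was higher and LDHA lower than in EM; this comparison shares its EM cells with the one before. LDHA, the lactate dehydrogenase subunit of muscle, averaged 32.1 ± 33.8 RPKM in LM and 848 ± 493 RPKM in EM (SD, n = 10 each), a log2 ratio of -4.68 with no overlap: the highest LM cell had 112 RPKM and the lowest EM cell 156 RPKM. Of 8 measured members, 2 were higher in LM (SLC2A1, 2.30, and PFKL, 1.40, against 23.7% of all genes) and 2 lower (LDHA and TPI1, against 49%). HK1, HK2, GPI and ENO1 stayed within 2-fold, at log2 ratios of 0.49, 0.08, 0.03 and 0.26, while the median of all genes was -0.92. TPI1 (-1.67) stood at -1.04 without EM outer cell H-02 and at -2.66 without LM inner cell D-10. With median-of-ratios factors, which put the all-gene median at 2.02, 6 members were higher and 1 lower and TPI1 turned to 0.13. LM carries letter D and EM letter H throughout, so stage and letter cannot be told apart. LM also has the fewest reads, and the part of depth in these ratios was not tested.

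Inner EB and MB cells were sequenced under letters A and B and under G and H. All 9 inner cells of A and B fell in an unnamed cluster that also holds the 11 outer EB and MB cells, and all 13 of G and H in another unnamed one, so letter and cluster cannot be told apart in this contrast. Of 8 measured members, 1 was higher in letters A and B than in G and H (PFKL, 1.55, against 24.8% of all genes) and 3 were lower (HK1, -1.24; HK2, -3.08; LDHA, -3.99; against 45.3%). HK2 ran from 0.107 through a median of 5.60 to 15.6 RPKM in the 9 inner cells of letters A and B, and from 19.9 through 45.4 to 90.4 RPKM in the 13 inner cells of G and H. The 2 sets did not overlap. LDHA ran from 1.06 through 5.99 to 84.7 RPKM in letters A and B and from 59.5 through 253 to 936 RPKM in G and H, with 1 cell of the first set, A-10, inside the range of the second (log2 ratio -4.78 without it).

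Across all stages HK2 was under 10 RPKM in 13 of 14 cells of letter B and 9 of 11 of letter A, and in 6 of 70 cells of letters D, G and H. The 16C cells belong to letter B, so the low HK2 at 16C and the low HK2 at MB fall under 1 letter. With median-of-ratios factors the all-gene median went to 1.26 (-0.69 as deposited), 5 members were higher and 2 lower, and HK1 turned to 0.32. With factors over the 1159 genes above 0 in all cells, 2 were higher and 3 lower. HK1 also stood at -0.95 in depth-weighted means, at -0.90 without the tenth of cells with the fewest genes, and at -1.86 without MB cell B-05.

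**Figure D3:**
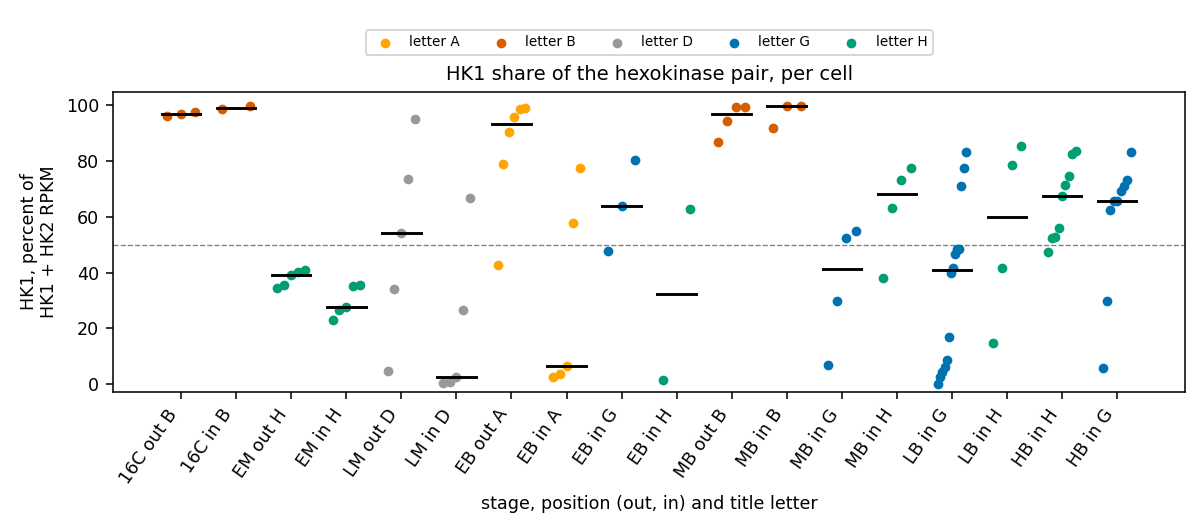
HK1 as percent of the summed HK1 and HK2 RPKM in each cell with a sum of 5 RPKM or more (points, coloured by title letter; bars, medians) by stage, position and letter; the dashed line marks 50%. All cells of letter B are at 86.9% or more, and all EM cells at 40.8% or less.

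The balance of the hexokinases ran the full range. HK1 made up from 0.117% to 99.8% of the pair in the 92 cells with a sum of 5 RPKM or more, with a median of 55.5%, and 51 cells were above 50%. In 16C all 5 cells were at 96.2% or more, with a median of 97.8%. All 10 EM cells lay between 23.1% and 40.8%, a narrow band, with a median of 39.2% in outer and 27.5% in inner cells. In LM the cells spread from 4.71% through 54.1% to 95.1% in the outer group and from 0.211% through 2.57% to 66.7% in the inner group.

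In letter A at EB the median share was 93.2% in outer and 6.39% in inner cells. Only 3 inner cells of 5 were low, the other 2 being at 57.9% and 77.4%. In letter B at MB it was 96.9% in outer and 99.7% in inner cells. Inner cells of other letters were mixed, with medians of 41.1% in G and 68.2% in H at MB, 40.8% in G and 60.0% in H at LB, and 67.4% in H and 65.7% in G at HB.

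The other 2 pairs were one-sided. PFKM, the muscle-type phosphofructokinase, had a median share of 0% of the pair with PFKL over 81 cells and passed 50% in 2 of them, LB cell G-14 (79.9%, with PFKM at 68.8 RPKM from 2886 reads) and HB cell H-10 (57.2%, with 13.0 RPKM from 572 reads). The 6 cells with PFKM at 5 RPKM or more were all LB or HB, and 5 of them fell in the epiblast-like cluster described below. ENO1 made up 94.8% to 100% of the enolase pair in all 95 cells. ENO2 reached 15.3, 65.1 and 66.3 RPKM in 16C outer and 109 and 177 RPKM in 16C inner cells, and ENO1 still made up 95.3% or more of the pair in these cells. After the morula ENO2 was at 0 in 61 of 70 cells and reached 1 RPKM in 2, MB cell G-03 (32.1 RPKM, 1238 reads) and HB cell G-06 (1.70 RPKM).

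Late and hatched cells held all 3 lineages. The 70 blastocyst cells were clustered without the members or other glycolysis genes, and clusters were named from lineage markers. LB letter G held 7 epiblast-like, 5 trophectoderm-like and 3 hypoblast-like cells, HB letter H 9 epiblast-like cells, and HB letter G 8 trophectoderm-like and 1 hypoblast-like cell (G-14). The trophectoderm-like cells of LB and of HB formed separate clusters given the same name. The LB cluster had 13 of 18 measured trophectoderm markers and 5 of 15 hypoblast markers at least 1 log2 unit above the other blastocyst cells. In the planned cut into 5 clusters, these LB cells shared an unnamed cluster with the hypoblast-like cells. There 10 of 18 trophectoderm and 13 of 16 hypoblast markers were that much higher. The trophectoderm-like cells carry the label inner, and in HB letter G they had GATA2 at 501 RPKM, GATA3 at 409 and NANOG at 0.438. The 5 trophectoderm-like LB cells are those of letter G whose source name says hatched.

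Within LB letter G, 2 of 9 measured members were higher in epiblast-like than in trophectoderm-like cells (31.4% of all measured genes were) and 1 lower (30.7%). LDHA had 0.854, 0.927, 1.08, 5.75, 24.6, 68.9 and 69.0 RPKM in the epiblast-like cells and 0.0384, 88.6, 266, 358 and 369 RPKM in the trophectoderm-like cells. All but the lowest trophectoderm-like cell exceeded all epiblast-like cells, and the log2 ratio was -3.09. HK1 had 8.73, 23.4, 44.5, 45.1, 71.9, 131 and 144 RPKM in the epiblast-like cells and 0.592, 0.706, 5.49, 27.4 and 42.2 RPKM in the trophectoderm-like cells, with partial overlap (2.06, and 2.83 without cell G-16).

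PFKM (3.00) was at 0 in 4 of the 7 epiblast-like cells and owed its call to cell G-14, without which it was 0.91 (3.64 without G-22). Hypoblast-like cells of the same letter had 0.0621, 2.96 and 3.60 RPKM of HK1 and 52.9, 64.7 and 148 RPKM of HK2. HK1 was thus 0.117% to 4.38% of their pair, against 16.9% to 83.4% in the epiblast-like cells. In the trophectoderm-like cells of this letter the share ran from 5.95% to 41.7%. The hypoblast-like HB cell G-14 was at 69.2%, so the low share was not seen in all hypoblast-like cells. All 5 trophectoderm-like cells are named hatched in their source name and none of the 7 epiblast-like cells is, so lineage and that stage label cannot be told apart here. The fibroblast list summed to between 0.256 and 171 RPKM in the epiblast-like cells, of which 4 exceeded 50 RPKM, and to at most 3.35 RPKM in the trophectoderm-like cells; its part was not tested.

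**Figure D4:**
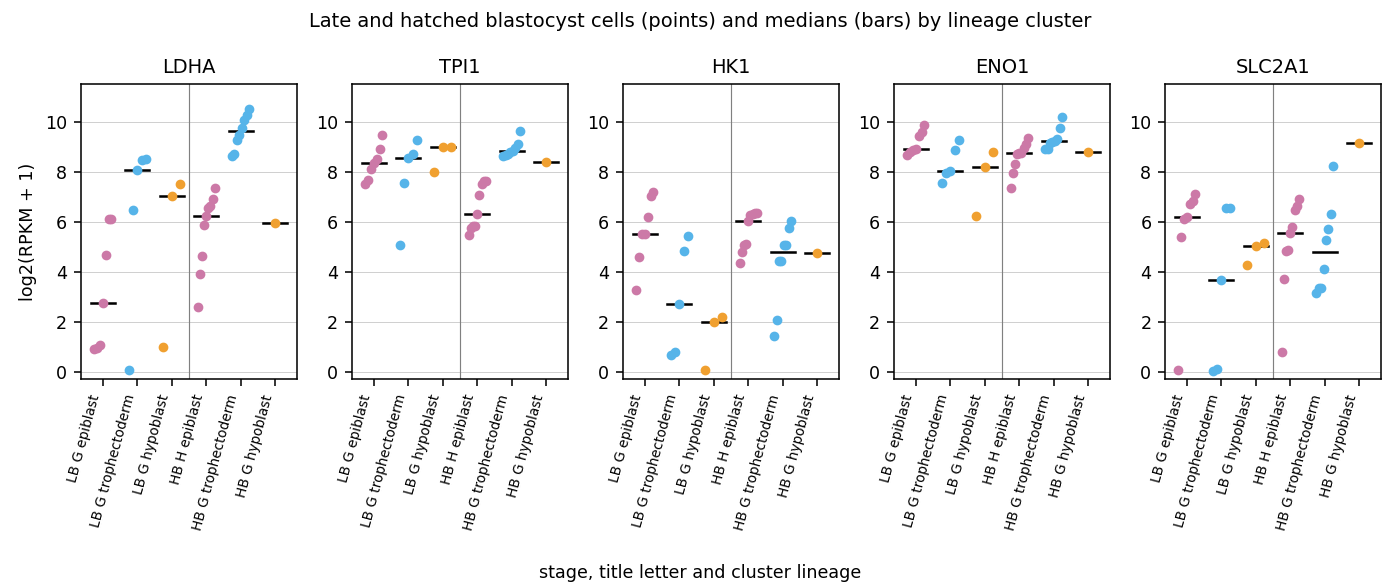
LDHA, TPI1, HK1, ENO1 and SLC2A1 in late (LB) and hatched (HB) blastocyst cells (points; bars, medians) by lineage cluster and title letter, on a log2(RPKM + 1) axis. LDHA is at 396 RPKM or more in the 8 trophectoderm-like HB cells and at 163 RPKM or less in the 9 epiblast-like HB cells.

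At HB the lineages fell on different letters. In epiblast-like cells of letter H, LDHA ran from 4.96 through a median of 75.3 to 163 RPKM, and in the trophectoderm-like cells of letter G from 396 through 790 to 1475 RPKM, without overlap. Over all 9 cells of each letter, 1 of 8 measured members was higher in letter H (GPI, 1.03, against 20.9% of all genes) and 3 were lower (SLC2A1, -1.18; TPI1, -2.11; LDHA, -3.39; against 24.1%). TPI1 ran from 43.5 through 77.9 to 197 RPKM in letter H and from 339 through 445 to 797 RPKM in letter G, and the cells did not overlap.

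The SLC2A1 call rested on hypoblast-like cell G-14 at 575 RPKM, without which the ratio was -0.27; without cell G-15 it was -0.89, and with medians it was 0.28. GPI dropped under 2-fold when any 1 of 10 cells was left out, the lowest value being 0.85, and with a pseudocount of 5 (0.95). Moving the 9 cells of conflicting stage to HB gave 0.83 for SLC2A1, 0.38 for GPI and -0.99 for LDHA. Lineage and letter cannot be told apart at HB. The fibroblast list differed between the same cells, its sum running from 88.0 through 111 to 417 RPKM in letter H and from 0 through 0.0241 to 1.93 RPKM in letter G. Most of it was COL1A2, with a mean of 158 RPKM in letter H and 0.0179 RPKM in letter G, and DCN reached at most 0.0224 RPKM. Its part in these ratios was not tested.

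LB was compared with MB in inner cells of each letter. In letter G, 3 of 10 measured members were higher in LB (PFKM, 1.62; PFKL, 1.73; TPI1, 1.49; against 26% of all genes) and 4 lower (SLC2A1, -4.53; ENO1, -1.23; ENO2, -3.17; LDHA, -2.01; against 26.8%). TPI1 ran from 32.7 through 363 to 721 RPKM in LB cells and was 79.9, 100, 100 and 238 RPKM in MB cells. The PFKM ratio was -0.07 without LB cell G-14 (2.70 without MB cell G-02, and 0.78 with a pseudocount of 5) and the ENO2 ratio 0.00 without MB cell G-03, while LDHA stood at -1.27 without MB cell G-04 and PFKL at 2.60 without MB cell G-02. With median-of-ratios factors, which put the all-gene median at 0.84, 4 were higher and 1 lower, and the calls of ENO1 (-0.45) and LDHA (-0.79) ended. The LB side mixes 3 lineages and the MB side carries hypoblast factors, so stage and lineage cannot be told apart. The fibroblast list exceeded 50 RPKM in 5 of 15 LB cells and 2 of 4 MB cells.

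In letter H, 3 of 8 measured members were higher in LB than in MB (SLC2A1, 6.12; TPI1, 1.31; LDHA, 1.92; against 34.8% of all genes) and 1 lower (PFKL, -1.18; against 20.7%). LDHA had 499, 568, 987 and 1023 RPKM in LB cells and 160, 161, 238 and 253 RPKM in MB cells. TPI1 had 229, 239, 261 and 684 RPKM in LB cells and 72.6, 76.6, 198 and 220 RPKM in MB cells. In all 3 genes the LB cells lay above all MB cells, and all 4 LB cells are those named hatched in the source name. The share of all measured genes separated in this way is not given. TPI1 stood at 0.77 without LB cell H-09, at 0.86 with medians and at 0.38 with median-of-ratios factors. PFKL stood at -0.92, -0.95 and -0.96 without LB cell H-15, MB cell H-09 and MB cell H-10, and at -0.67 with factors over genes above 0 in all cells. Splits were 2 higher and 3 lower with the first of these scalings (all-gene median -0.78) and 3 and 0 with the second. SLC2A1 and LDHA differed in opposite directions in the 2 letters, and TPI1 was higher in LB in both. The MB and LB cells of letter H also differed in GATA4, SOX17 and NANOG RNA, so stage and lineage cannot be told apart here. The fibroblast list ran from 0.578 through 6.85 to 159 RPKM in these LB cells and reached at most 0.0445 RPKM in the MB cells. Its part was not tested.

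In letter H the HB cells were lower than the LB cells in SLC2A1, TPI1 and LDHA; the LB cells are those that the comparison with MB also used. Of 8 measured members, 1 was higher in HB (GPI, 1.20, against 21.2% of all genes) and 4 were lower (SLC2A1, -2.95; TPI1, -1.67; ENO1, -1.63; LDHA, -3.40; against 19.7%), with a median log2 ratio of -1.11 against -0.01 over all genes. TPI1, SLC2A1 and LDHA of the 9 HB cells lay below all 4 LB cells, and the share of all measured genes that did so is not given. ENO1 averaged 414 ± 153 RPKM in HB (SD, n = 9) and 1282 ± 586 RPKM in LB (SD, n = 4). The 5 calls held with each cell left out and under both other scalings. All 4 LB cells are named hatched in their source name, so leaving them out or moving them to HB leaves no comparison. The fibroblast list summed to 88.0 RPKM or more in all 9 HB cells and ran from 0.578 through 6.85 to 159 RPKM in the LB cells, and its part was not tested. They fell in an unnamed cluster with the inner EB and MB cells of letters G and H, and had 30.6 RPKM of GATA4 and 38.8 of SOX17 beside 478 of NANOG, while the HB cells were all epiblast-like with 0.0914, 0.0210 and 628 RPKM of these genes.

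In MB inner cells of letter G against letter H, also added after the data were seen, 3 of 9 measured members were higher (SLC2A1, LDHA and ENO2, against 34.2% of all genes) and 2 lower (HK1, -1.14; PFKL, -4.01; against 25.6%). PFKL had 0.0905, 1.98, 10.7 and 21.5 RPKM in letter G and 49.7, 122, 218 and 221 RPKM in letter H, without overlap (-4.87 without cell G-02). The fibroblast list summed to between 1.20 and 118 RPKM in letter G and to at most 0.0445 RPKM in letter H, and its part was not tested. ENO2 was read in 1 cell of letter G and is listed at 0 in the others and in letter H. LDHA (1.06) stood at 0.32 without cell G-04, 0.96 without H-05, 0.97 without H-10 and 0.71 with medians. HK1 stood at -0.43 without cell H-10, -0.80 without G-02, -1.83 without G-03 and -0.82 with medians. With median-of-ratios factors (all-gene median -0.24) 1 was higher and 3 lower, and with factors over genes above 0 in all cells 4 and 1; the LDHA call ended with the first of these (0.81) and the HK1 call with the second (-0.73).

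**Figure D5:**
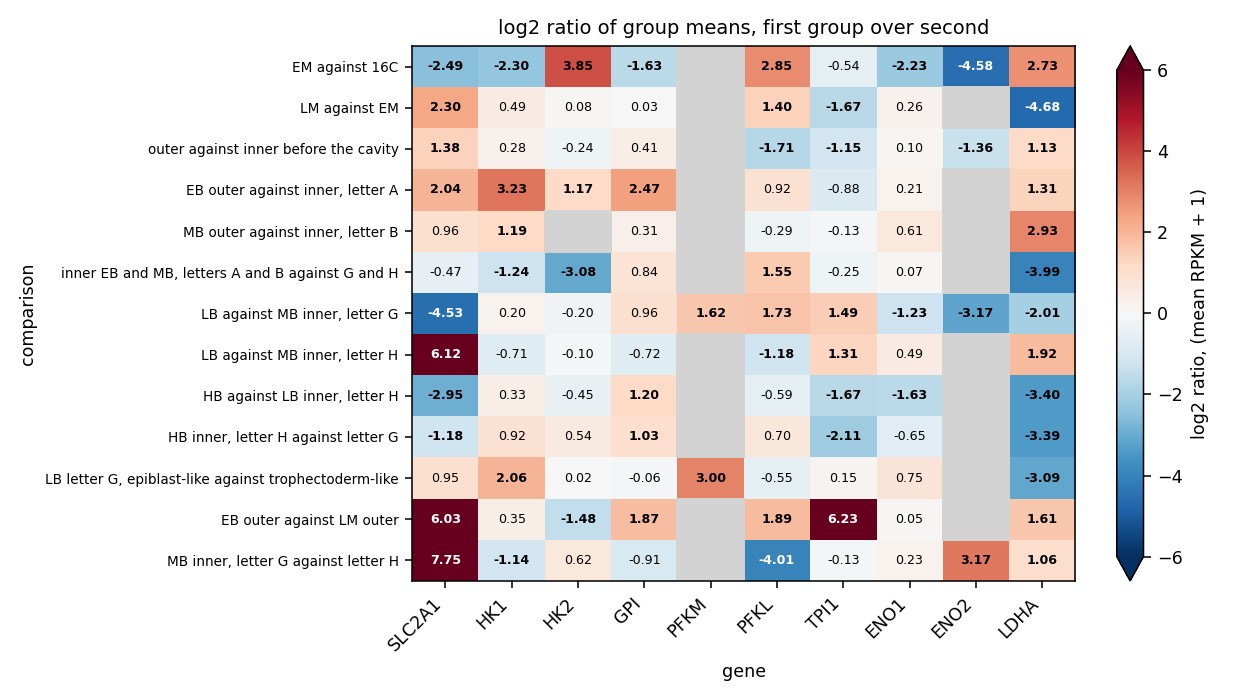
The log2 ratio of group means (1 RPKM added) for each gene (columns) in the 13 comparisons (rows), first-named group over second, with ratios of 2-fold or more in bold and genes under 5 RPKM in both groups in grey; colours end at -6 and 6. SLC2A1 has the highest value (7.75) and also one of -4.53, and LDHA has the lowest (-4.68).

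Of 58 other genes of glucose use listed, 53 were in the table. In EM against 16C 10 were higher and 7 lower of 29 measured, beside 44.7% and 25.1% of all genes. The higher ones included the lactate dehydrogenase subunit of heart LDHB (3924 RPKM in EM, 497 in 16C), the transporter SLC2A3 (861 and 165) and phosphoglycerate kinase PGK1 (236 and 15.2). Among the lower ones were the aldolase ALDOA (225 and 1981) and GAPDH (1146 and 2798). In LM against EM, with the same EM cells, 6 were higher and 11 lower of 29, beside 23.7% and 49% of all genes. LDHB stood at 268 RPKM in LM and 3924 in EM, SLC2A3 at 71.0 and 861, PGK1 at 14.2 and 236, ALDOA at 1524 and 225, and GAPDH at 3641 and 1146.

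In inner EB and MB cells 11 were higher and 14 lower of 30 in letters A and B than in G and H, beside 24.8% and 45.3% of all genes, so the lower calls were about as frequent as among all genes. GAPDH (3025 RPKM in A and B, 905 in G and H) and ALDOA (865 and 181) were among the higher ones, and PGK1 (42.6 and 475), LDHB (1351 and 4160), SLC2A3 (63.9 and 262) and the hypoxia factor HIF1A (1.37 and 23.8) among the lower ones. LDHA and HK2 thus lay on the side of PGK1 and LDHB in this contrast and PFKL on the side of GAPDH.

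In outer against inner cells before the cavity the list had 4 higher and 4 lower of 30, beside 13.5% and 9.88% of all genes. At EB it had 9 and 4 of 27, beside 29% and 32.7%, and at MB 8 and 7 of 26, beside 36.3% and 24.7%. In MB outer cells SLC2A3 averaged 123 RPKM, against 12.0 in inner cells, and PGK1 73.4 against 17.1. Epiblast-like against trophectoderm-like LB cells had 10 higher and 5 lower of 26, beside 31.4% and 30.7% of all genes. LDHB was at 4893 RPKM in the epiblast-like and 1699 RPKM in the trophectoderm-like cells, opposite to LDHA, and the monocarboxylate transporter SLC16A1 at 70.8 and 14.2 RPKM.

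In HB letter H against letter G 11 were higher and 8 lower of 30, beside 20.9% and 24.1% of all genes, with LDHB at 4381 RPKM in H and 1373 in G, pyruvate kinase PKM at 103 and 252, SLC2A3 at 125 and 359, and HIF1A at 42.7 and 123. LB against MB had 6 higher and 10 lower of 29 in letter G, beside 26% and 26.8% of all genes, and 10 and 4 of 27 in letter H, beside 34.8% and 20.7%. HB against LB of letter H had 6 and 4 of 30, beside 21.2% and 19.7%. EB against LM outer cells had 11 and 6 of 25, beside 35.8% and 34.5%, and MB letter G against H 10 and 6 of 28, beside 34.2% and 25.6%. No count over this list is read as particular to it.

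The genes whose group means were most like each member's were found by Pearson's r of log2(mean + 1) over the 18 groups among 8584 candidates. The groups share letters, depth and stage, so these are descriptions. For SLC2A1 they were SOX17 (0.87), SERPINH1 (0.87) and GRB7 (0.85). For LDHA they were citrate synthase CS (0.91), HMGB1 (0.91) and XRCC5 (0.91), for TPI1 ANXA2 (0.93), FUCA2 (0.88) and TXNDC12 (0.87), and for ENO1 TUBB4B (0.86), CDC20 (0.85) and LPAR5 (0.83).

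For HK2 they were CCDC58 (0.89), TRA2A (0.88) and EIF4E (0.87), and for HK1 RBM19 (0.79), ASCC2 (0.78) and ILVBL (0.78). GPI had AURKB (0.82), ADPRHL2 (0.78) and PQLC2 (0.78), and PFKL had SNX21 (0.90), ATP6V1B1 (0.87) and CD151 (0.85). Among the genes most like PFKM were WNT5B (0.88) and E2F3 (0.87), and ENO2 was most like CA13 (0.98), TEKT5 (0.94) and C17orf100 (0.94), both members being near 0 in most groups.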

How the data were processed

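The authors deposited a single matrix of genes by cells without naming a unit. The deposited values were taken as RPKM computed by the authors, because the low values of nearly every gene fall on an evenly spaced ladder whose spacing varies with gene and cell. Tools listed, without roles, per the submitters' processing notes are TopHat2 (2.1.0), HTSeq, FastQC and DESeq2. Build, annotation and handling of multiply mapped reads are not given in the sources used here; no coordinates are printed. Per the labels' protocols, cDNA was poly(A)-tailed and PCR-amplified without mention of molecular identifiers, so reads are not independent molecules.

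Relative depth was read from that spacing, and whole reads were recovered for 11501 of 11525 genes (99.8%) with 6 or more cells above 0, within 0.05 read, all 10 members included. Recovery and calls were tested on simulated data. No label names an animal or embryo and each group is 1 sample, so no count test was run on the recovered reads and no p-values are given. Groups were compared by mean RPKM (1 RPKM added, 5 RPKM minimum, 2-fold). Isoform shares use cells with a pair sum of 5 RPKM. Blastocyst cells were clustered on 10 principal components of the 1000 most variable genes; 6 Ward clusters were used in place of the 5 planned, which left no trophectoderm-like LB cell. The members and lists were chosen with earlier results of these data known. All members and the genes past 2-fold of the pathway list, 3 like genes per member and lineage markers could be named; COX6C was chosen after its values were seen. One of the genes most like PFKM is not reported here. Alternatives were other pseudocounts, minima, medians, scalings, cell sets and leaving out each cell. Python 3.11.15, numpy 2.4.6, pandas 2.3.3 and scipy 1.17.1 were used.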

Additional observations from a re-analysis of the deposited data

Results flagged for a closer look

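In groups of 4 to 10 cells, 10 of 104 sets of 1 member in 1 group held a cell far from the rest by Dixon's criterion. The criterion was applied to log2(RPKM + 1) values, while the values below are RPKM. It would mark about 1 in 20 sets of normally distributed values. Sets with many values near 0 are not of that kind, so the count is not read against that rate. Low cells were EM inner H-05 for LDHA (156 RPKM, the others 459 to 655), LM outer D-03 for HK1 (1.58, the others 65.6 to 127), EB inner A-07 for SLC2A1 (0.884, the others 225 to 352), MB outer B-02 for HK1 (0.840, the others 97.7 to 148), and HB inner G-14 for PFKL (0.0331, the others 20.5 to 68.3) and LDHA (60.8, the others 396 to 1475). High cells were MB inner G-03 for ENO2 (32.1, the others at 0), MB inner H-03 for SLC2A1 (19.8, the others up to 0.0468), LB inner H-09 for TPI1 (684, the others 229 to 261) and HB inner G-10 for PFKM (5.21, the others up to 1.33). HB inner G-14 is the only hypoblast-like cell of its group.

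The difference of SLC2A1 between LB and MB had opposite directions in the 2 letters, with a log2 ratio of -4.53 in letter G and 6.12 in letter H, and LB and MB cells did not overlap in either. The 4 LB cells of letter H are all named hatched in their source name. The difference between the letters was not tested.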

How the results depend on the processing

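Of 62 called ratios of members, 37 kept their call in all alternatives run. The share kept among calls of all genes is not given, and some of the comparisons share cells. Calls past 2-fold numbered 2 with medians and 7 with median-of-ratios factors in LM against EM (4 as reported), 3 with a pseudocount of 5 before the cavity (5 as reported), 5 with median-of-ratios factors and 4 with factors over genes above 0 in all cells in MB outer against inner cells (2), 7 with median-of-ratios factors in letters A and B against G and H (4), 2 with the 9 cells of conflicting stage moved to HB in letter H against G (4), and 2 with medians in MB letter G against H (5). Leaving out 1 cell at a time gave 3 to 5 calls before the cavity, 1 to 4 in MB outer against inner cells, 2 to 5 in HB letter H against G, 2 to 5 in epiblast-like against trophectoderm-like cells (3 as reported) and 3 to 6 in MB letter G against H.

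Directions turned for TPI1 in LM against EM (0.13) and HK1 in letters A and B against G and H (0.32), both with median-of-ratios factors; for HK2 in EB outer against inner cells with medians (-0.69) and over single cells left out (-0.86 to 1.46); for PFKM in LB against MB of letter G with medians (-0.015) and over single cells left out (-0.068 to 2.70); for ENO2 in that comparison over single cells left out (-3.55 to 0.0023); and for SLC2A1 in HB letter H against G with medians (0.28) and with the 9 cells moved (0.83). The cause was not tested, beyond the named cells. A cut into 5 clusters left no trophectoderm-like LB cell. Leaving out or moving the 9 cells of conflicting stage left none either, and no LB cell of letter H, so the lineage comparison and both comparisons of LB letter H have no such value. No paired analysis was possible because the cell numbers in the titles name no shared embryo and no test was made. Depth limits LM most, with a median of 7.02 megareads per cell.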
